A study of Mus musculus and Rattus norvegicus with 30 samples.

Results

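Dorsal root ganglia (DRG) of 2 mouse strains that had not received a nerve lesion were compared: 5 B10.D2 and 6 BALB/c sham libraries, 11 of the 30 samples of the series. They were chosen by their labels alone, as every mouse library with a sham label and a column of counts. Each library is the lumbar DRG of 1 animal, an adult mouse of either sex (3 males and 2 females in B10.D2, 3 males and 3 females in BALB/c), bought in from a commercial breeder. In sham surgery the branches of the sciatic nerve were laid bare and left whole, whereas in spared nerve injury (SNI) some of them were cut, and both strains also had an SNI group (5 B10.D2 and 4 BALB/c libraries of other animals). A further B10.D2 sham male that the labels list was not analysed here. The labels name no engineered allele, so the groups differ in inbred strain, and the study had chosen these strains because BALB/c mice react more strongly to touch after SNI. The question here is which neuronal, glial and immune genes differ between the strains without nerve injury.

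DRG hold the cell bodies of sensory neurons. Peptidergic nociceptors carry pain and heat signals, nonpeptidergic neurons carry mechanical pain and itch, and large myelinated neurons carry touch and limb position. Satellite glial cells wrap each cell body, Schwann cells ensheath the axons, and resident macrophages lie between them and present antigen on major histocompatibility complex (MHC) molecules. B10.D2 is a C57BL/10 background with the d haplotype of the MHC, and BALB/c carries the d haplotype too. In whole tissue, fewer cells of a type and less RNA per cell cannot be told apart.

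Values are raw counts per gene, given as CPM, the counts scaled to an equal TMM-adjusted library total, and B10.D2 values stand in the order of its 3 males and 2 females. A log2 fold change above 0 is higher in B10.D2. A feature was called when its adjusted p in edgeR, with sex as covariate, was under 0.05. Libraries held 33243152 to 41881331 counts, and 6 measures of composition (the total and the shares on assembled LncRNAs, mitochondrial, ribosomal protein and haemoglobin genes and on the 10 most counted features) did not pass the test between strains (exact permutation tests, adjusted p from 0.836 to 0.870; the smallest p that 462 relabellings allow is 0.00216). In 11 of 11 libraries Xist and Ddx3y matched the labelled sex, and pan-neuronal and sensory neuron markers, among them Isl1, Uchl1 and Nefl, summed to 16078 to 18578 CPM in BALB/c and 17059 to 19419 CPM in B10.D2. The first principal component held 51.8% of the variance and separated the strains. BALB/c library 50, a male, stood apart on the second (12.7%): its 12 skeletal muscle markers summed to 1829.8 CPM against 74.4 to 211 CPM in the other BALB/c libraries, and its neutrophil and mast cell markers to 438 CPM against 151 to 289.5 CPM. Where a list's counts move without library 50, they are given both ways.

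The strains differed in 4630 of 24176 features tested (19.2%), of which 2398 were higher (9.92%) and 2232 lower (9.23%) in B10.D2. By class these were 3017 of 15560 protein-coding genes, 864 of 3625 LncRNAs that the authors assembled, 348 of 1924 annotated LncRNAs and 192 of 978 pseudogenes. In B10.D2 the called protein-coding genes were higher in 1574 and lower in 1443 cases, and the assembled LncRNAs in 431 and 433. Annotated LncRNAs were higher in 205 and lower in 143 cases, and pseudogenes in 62 and 130. Most differences were small, with a median absolute log2 fold change of 0.43 among called protein-coding genes, and 540 of the 3017 reached 2-fold. The immune lists held 454 genes, of which 351 passed the filter on low counts and 108 were higher and 17 lower in B10.D2 (35.6% called). Of 368 neuronal genes 326 were tested, with 53 higher and 31 lower (25.8%), and of 54 glial genes 53 were tested, with 1 higher and 9 lower (18.9%). The classes overlap, as Kcnj10 and Ngfr are counted in both the neuronal and the glial lists. The neuronal lists hold whole channel families, so they also count channels of muscle, vessels or glia, such as Scn4a, Cacna1s, Piezo1 and Kcnj10. The median log2 fold change over tested members was 0.25 in the immune, 0.04 in the neuronal and -0.10 in the glial lists, beside -0.01 over all features tested. No overlap between strains was seen in 54 of the 351 immune, 55 of the 326 neuronal and 6 of the 53 glial genes. Of all features tested 13.4% did not overlap. Without library 50 the immune lists gave 111 higher and 15 lower, the neuronal lists 43 higher and 31 lower and the glial lists 0 higher and 11 lower. A member that passes the filter only through the strain in which it is high had to differ, and 36 of the 125 called immune and 14 of the 84 called neuronal genes averaged under 1 CPM in the lower strain. With at least 10 counts required in every library, 100 of 285 immune, 76 of 307 neuronal and 9 of 51 glial genes were called. Under that filter 3688 of all 20532 features tested were called.

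**Figure D1:**
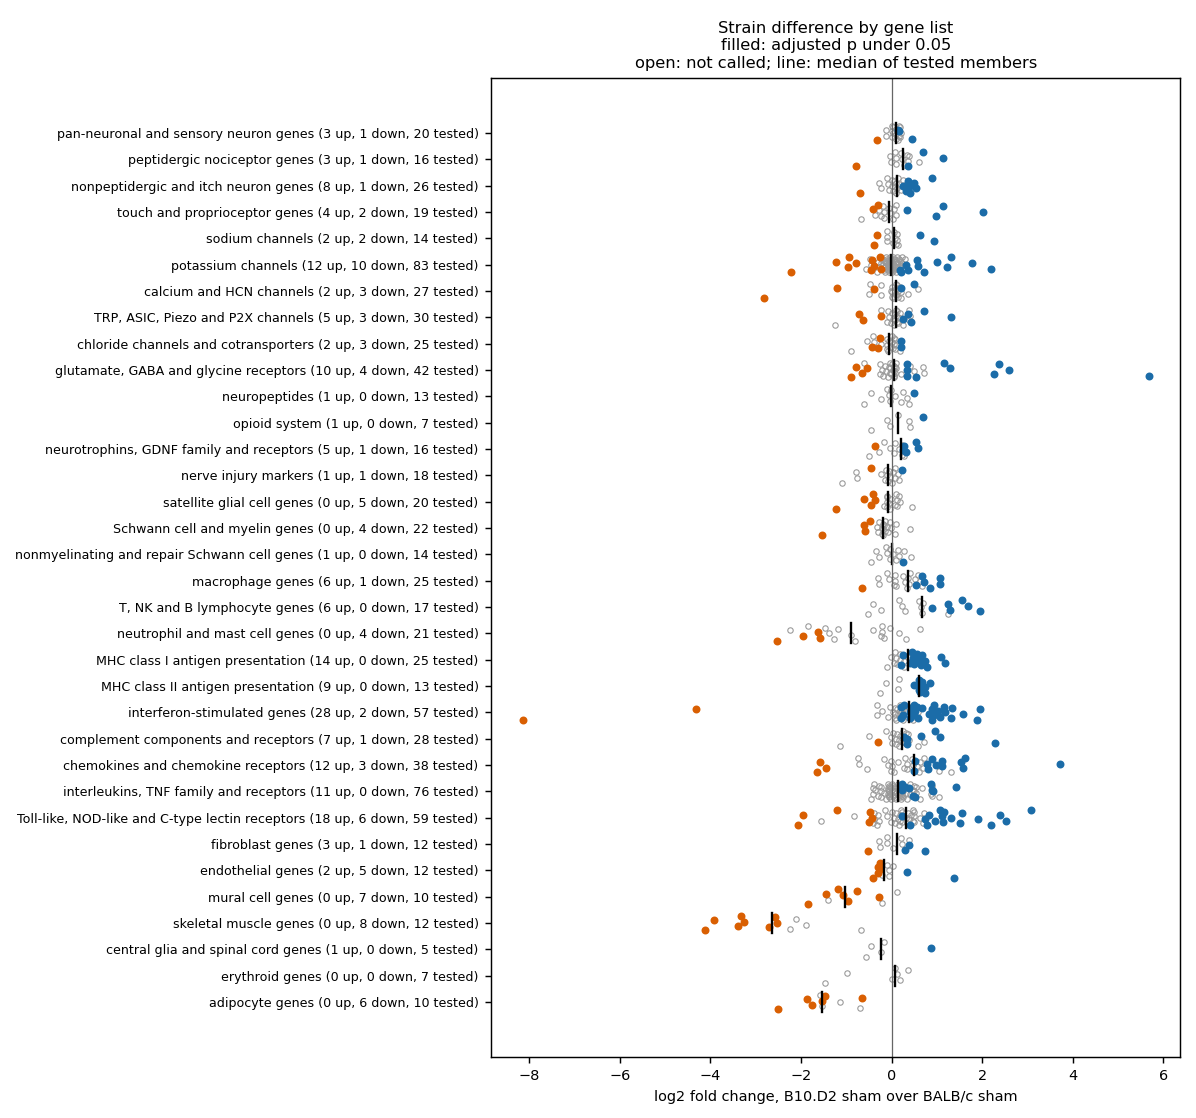
Log2 fold change (B10.D2 over BALB/c, sham ganglia) of every tested member of each gene list; filled points were called (blue higher, orange lower in B10.D2), open points were not, and the vertical bar is the list's median. MHC and interferon lists lie mostly to the right of 0, with medians of 0.36, 0.61 and 0.39, while the skeletal muscle, mural and adipocyte lists lie to the left.

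The MHC class I and class II genes that were called were all higher in B10.D2 than in BALB/c. MHC class I molecules show peptides from inside the cell to cytotoxic T cells, and 14 of 25 genes of that list were called higher (13 higher and 0 lower without library 50). That is 56% called, beside 19.2% of all features. For 5 of the 25 the strains did not overlap, beside 13.4% of all features tested. The list's sum was 1126 to 1321 CPM in B10.D2 and 904 to 1139 CPM in BALB/c. H2-K1 was at 82.2, 77.8, 90.3, 112 and 86 CPM in the B10.D2 libraries and at 49.1 to 75.9 (median 61.7) CPM in BALB/c, a log2 fold change of 0.55 ± 0.08 (SE; adjusted p = 0.000216). B2m was at 110.1, 128, 119.7, 167 and 140.2 CPM in the B10.D2 libraries and at 79.3 to 109 (median 83) CPM in BALB/c, a log2 fold change of 0.61 ± 0.08 (SE; adjusted p = 6.62e-05). H2-K1, a class I heavy chain, and B2m, the light chain that class I molecules share, were thus 1.47 and 1.53 times the BALB/c level by the fit, and for both every B10.D2 library lay above every BALB/c library. H2-D1 (0.47), the peptide transporter subunits Tap1 (0.50) and Tap2 (0.21), the immunoproteasome subunit Psmb8 (0.42), the trimming peptidase Erap1 (0.24) and the class I transactivator Nlrc5 (0.77) were higher as well. The nonclassical genes H2-Q6 (1.09) and H2-Q7 (1.17) had the largest log2 fold changes of the list, and the Tap2 call was lost without library 50. H2-Q genes are near-identical copies, so the split of reads between them is uncertain.

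MHC class II molecules show peptides from outside the cell to helper T cells, and 9 of 13 tested genes of that list were called higher. That is 69.2% called, beside 19.2% of all features. For 1 of the 13 the strains did not overlap, beside 13.4% of all features tested. The list's sum was 599 to 670 CPM in B10.D2 and 460 to 628 CPM in BALB/c. Cd74, the invariant chain that guides class II molecules, was at 85.4, 109.7, 102, 116 and 98 CPM in B10.D2 against 44.9 to 95.7 (median 65) CPM in BALB/c, a log2 fold change of 0.61 ± 0.15 (SE; adjusted p = 0.0122). For H2-Ea-ps, the E-alpha chain that the reference strain has lost and that is annotated as a pseudogene, values were 32.5, 32.2, 42, 45 and 38.6 CPM in B10.D2 against 16 to 37.8 (median 24) CPM in BALB/c, a log2 fold change of 0.61 ± 0.17 (SE; adjusted p = 0.0195). The H2-Ea-ps call was lost without B10.D2 library 67. For both genes the ranges of the strains overlapped, because the highest BALB/c library lay within the B10.D2 range. H2-Aa (0.63), H2-Ab1 (0.50), H2-Eb1 (0.67), the loading factors H2-DMb1 (0.62) and H2-DMb2 (0.75) and the class II transactivator Ciita (0.73) were also higher. The number of class II genes called fell from 9 to 5 without B10.D2 library 67. Within the interval that spans the H2 genes on chromosome 17 (chr17:33974659-37483552, GRCm38), 17 of 27 tested H2 genes were called, 17 of them higher, whereas 12 of the other 121 features were called (9.92%).

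Macrophages are the main antigen-presenting cells of the ganglion, and some of their markers differed. Of 25 macrophage genes 6 were higher and 1 lower (8 higher and 1 lower without library 50), and their summed level was 374 to 424 CPM in B10.D2 and 212 to 470.4 CPM in BALB/c. That is 28% called, beside 19.2% of all features. For 4 of the 25 the strains did not overlap, beside 13.4% of all features tested. C1qb, a subunit of the first complement component, was at 17.7, 16, 18.5, 17.3 and 16.8 CPM in B10.D2 against 5.42 to 11.3 (median 8.28) CPM in BALB/c, a log2 fold change of 1.06 ± 0.16 (SE; adjusted p = 0.000297). The lysosomal protease Ctss, which also trims the invariant chain, was at 21.9, 23.8, 25.5, 25.5 and 23.5 CPM in B10.D2 against 7.79 to 18.8 (median 12) CPM in BALB/c, a log2 fold change of 0.84 ± 0.18 (SE; adjusted p = 0.00467). Both genes were higher in each B10.D2 library than in any BALB/c library. Adgre1 (0.66), which encodes F4/80, the Fc receptor Fcgr1 (1.07), Aif1 (0.54) and Ms4a7 (0.71) were called higher too. The lysosomal marker Cd68 was at 3.35, 2.55, 2.93, 2.31 and 3.04 CPM in B10.D2 against 1.8 to 4.05 (median 2.67) CPM in BALB/c, a log2 fold change of 0.07 ± 0.19 (SE; adjusted p = 0.862), and Csf1r, the receptor that macrophages need to survive, at 35, 37, 39.6, 36.8 and 36.7 CPM in B10.D2 against 19.6 to 46 (median 30.7) CPM in BALB/c, a log2 fold change of 0.25 ± 0.15 (SE; adjusted p = 0.273), so neither was called. Lgals3, a lectin of activated macrophages, went the other way, at 13.1, 12.7, 14.3, 12.2 and 10.4 CPM in B10.D2 against 16.8 to 22.3 (median 18.9) CPM in BALB/c, a log2 fold change of -0.65 ± 0.08 (SE; adjusted p = 6.28e-05). The number of macrophage genes called went from 7 to 14 without BALB/c library 55. The part of these markers in the MHC differences was not tested.

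The lymphocyte genes that were called were all higher in B10.D2. In that list 6 of 17 tested members were called higher and 0 lower (35.3% called, beside 19.2% of all features). Ighm, the heavy chain of immunoglobulin M, was at 21.2, 19.6, 21.7, 32.2 and 30.6 CPM in B10.D2 against 6.29 to 16.7 (median 10.3) CPM in BALB/c, a log2 fold change of 1.24 ± 0.17 (SE; adjusted p = 0.000147), with no overlap between strains. The helper T cell co-receptor Cd4 was at 1.01, 1.16, 1.67, 1.26 and 1.15 CPM in B10.D2 against 0.549 to 0.862 (median 0.633) CPM in BALB/c, a log2 fold change of 0.90 ± 0.19 (SE; adjusted p = 0.00335). The kappa light chain Igkc (1.70), the cytotoxic T cell co-receptor Cd8a (1.95), Cd2 (1.29) and Cd3g (1.56) made up the other calls, of which Cd2, Cd3g and Cd8a were under 1 CPM in both strains. In SNI ganglia 1 of these 6 was called in the same direction, Cd4. The number called in sham fell from 6 to 3 without B10.D2 library 88. Of 21 tested markers of neutrophils and mast cells 4 were called lower and 0 higher (19%, beside 19.2% of all features), and the median log2 fold change was -0.90, or -0.55 without library 50. The mast cell tryptase Tpsab1 was at 1.45, 1.51, 1.0, 0.538 and 0.446 CPM in B10.D2 against 1.93 to 4.5 (median 3.68) CPM in BALB/c, a log2 fold change of -1.96 ± 0.27 (SE; adjusted p = 0.000156). The neutrophil surface gene Ly6g was at 0.318, 0.0594, 0.31, 0.0807 and 0.157 CPM in B10.D2 against 0.322 to 2.67 (median 0.742) CPM in BALB/c, a log2 fold change of -2.52 ± 0.61 (SE; adjusted p = 0.00929). Neutrophil granule genes Ngp (-1.63) and Camp (-1.58) were also called, and the number called depended on single libraries, since it fell to 2 without BALB/c library 50 and lay between 2 and 8 when each library was left out in turn.

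Interferon-stimulated genes were another large group in which most called genes were higher in B10.D2. Interferons bind cell surface receptors and switch on genes that restrict viruses and present antigen. Of 57 tested members 28 were higher and 2 lower (27 higher and 2 lower without library 50), with a median log2 fold change of 0.39. That is 52.6% called, beside 19.2% of all features. For 9 of the 57 the strains did not overlap, beside 13.4% of all features tested. The list's sum was 813 to 1053 CPM in B10.D2 and 653 to 911 CPM in BALB/c, so the ranges overlapped. Igtp, a GTPase that attacks intracellular parasites, was at 18.3, 21.8, 21.4, 26.9 and 20.7 CPM in B10.D2 against 7.92 to 14.8 (median 10.2) CPM in BALB/c, a log2 fold change of 1.07 ± 0.11 (SE; adjusted p = 6.71e-06). Trim30a was at 9.51, 8.61, 8.38, 11.7 and 11.6 CPM in the B10.D2 libraries and at 2.9 to 6.85 (median 4.07) CPM in BALB/c, a log2 fold change of 1.18 ± 0.17 (SE; adjusted p = 0.000176), and no library of one strain overlapped the other. Ifit3, which binds foreign RNA, was at 19.7, 16.5, 20.7, 28.4 and 21.3 CPM in B10.D2 against 5.47 to 19 (median 7.72) CPM in BALB/c, a log2 fold change of 1.33 ± 0.22 (SE; adjusted p = 0.000532), with 1 BALB/c female inside the B10.D2 range. Irf9, a transcription factor of the interferon response, was higher (0.22), but not without library 50. Bst2 (0.94), which tethers virus particles to the cell, Oasl2 (0.67), Mx1 (0.94), Zbp1 (1.3) and the GTPases Iigp1 (0.83), Gbp2 (0.40), Gbp6 (1.96) and Gbp8 (1.57) were called higher. The interferon regulatory factor Irf7 was not called (0.19; adjusted p = 0.499).

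Some interferon-stimulated genes differed far more, and not in 1 direction. Ifi44l was at 0.116, 0.119, 0.0239, 0.0538 and 0.105 CPM in B10.D2 against 1.15 to 3.02 (median 1.52) CPM in BALB/c, a log2 fold change of -4.32 ± 0.33 (SE; adjusted p = 6.59e-07). Ifi202b had 559 reads over the 6 BALB/c libraries and 1 over the 5 B10.D2 libraries, a ratio of 469.6 in CPM (exact 95% interval 83.9 to 18581, counting error only). It lies in a cluster of related DNA sensors on chromosome 1 (chr1:173350879-174031810), where 13 of 13 genes were tested, 8 were higher and 1 lower in B10.D2. In that cluster Ifi206 had 108 reads in B10.D2 and 1 in BALB/c, a ratio of 129 (exact 95% interval 22.6 to 5124, counting error only), Ifi213 was higher in B10.D2 as well (5.49), and Aim2, the best known sensor of the family, was not called (0.34). A cluster of Trim genes on chromosome 7 held 7 called genes of 13, with 6 higher, among them Trim12a (7.01), Trim5 (5.23) and Trim30d (4.82), and Trim34b lower (-4.39). Guanylate-binding proteins also ran both ways, with Gbp2b (-5.49) on chromosome 3 and Gbp11 (-0.75) on chromosome 5 lower, the Gbp11 call being lost without library 50. These families were singled out after their values were seen, and their members share near-identical sequence, so the authors' counting could have split or dropped reads between copies.

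Interferon-stimulated genes are known for a response element near their start, to which IRF proteins bind. The core letters GAAANNGAA were searched on both strands of the 250 bases before the start of each gene in RefSeq's promoters (GRCm38.p6), and overlapping matches were kept. Of 27025 genes with a promoter 2211 held a match (8.18%). Among interferon-stimulated genes 39 of 57 had a promoter in the set and 22 of the 39 held a match (56.4%), which includes 10 of 16 that were higher in B10.D2 (62.5%) and 11 of 21 that were not called (52.4%). MHC class I genes held it in 4 of 19 (21.1%) and class II genes in 1 of 11 (9.09%). The match nearest the start is printed for 6 genes that were higher and for Ifi44l, which was lower, as 30 bases in the direction of the gene, with the match in capitals and, where it lies on the opposite strand, as its reverse complement. A match is a description of these letters in the reference strain and not a binding site.
B2m, chr2:122147538-122147567, plus strand: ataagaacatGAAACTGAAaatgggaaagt
Ctss, chr3:95526755-95526784, plus strand: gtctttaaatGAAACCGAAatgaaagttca
Igtp, chr11:58199512-58199541, plus strand: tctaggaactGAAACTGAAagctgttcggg
Bst2, chr8:71537577-71537606, minus strand: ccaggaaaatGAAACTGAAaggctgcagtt
Ifit3, chr19:34583417-34583446, plus strand: tactttcctcTTCCCTTTCacaaacactga
Trim30a, chr7:104465209-104465238, minus strand: gttctttagtTTCTTTTTCtcagttcctgc
Ifi44l, chr3:151762892-151762921, minus strand: gcaaagtgagcagcaacTTCTGTTTCtgcg

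**Figure D2:**
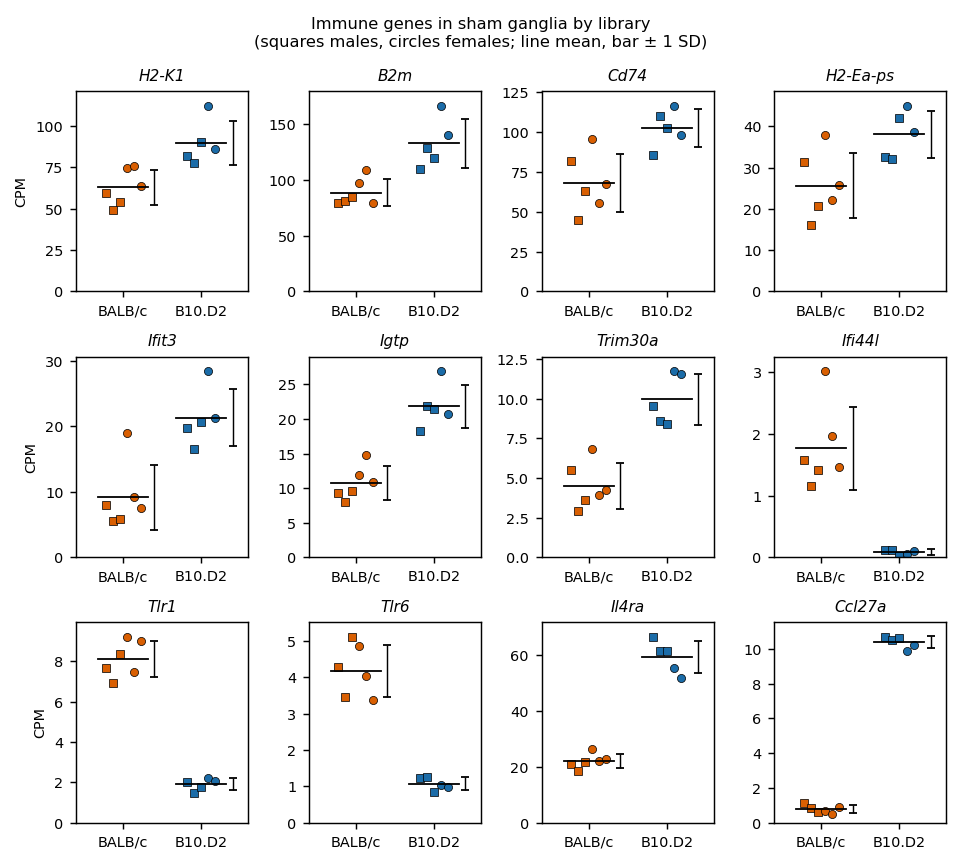
CPM of 12 immune genes in each sham library (y axis from 0; squares males, circles females; line mean, bar 1 SD). H2-K1, B2m, Igtp, Trim30a, Il4ra and Ccl27a were higher in all 5 B10.D2 libraries than in any of the 6 BALB/c libraries, Ifi44l, Tlr1 and Tlr6 lower in all 5, and the ranges of Cd74, H2-Ea-ps and Ifit3 overlapped.

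Innate receptors differed in both directions. Of 59 tested Toll-like, NOD-like and C-type lectin receptor genes 18 were higher and 6 lower (21 higher and 6 lower without library 50), and for 17 the strains did not overlap, beside 13.4% of all features tested. That is 40.7% called, beside 19.2% of all features. Tlr1 was at 2.02, 1.45, 1.77, 2.23 and 2.07 CPM in the B10.D2 libraries and at 6.94 to 9.2 (median 8.0) CPM in BALB/c, a log2 fold change of -2.07 ± 0.11 (SE; adjusted p = 1.16e-08). Tlr6 was at 1.24, 1.25, 0.859, 1.05 and 0.996 CPM in the B10.D2 libraries and at 3.37 to 5.1 (median 4.16) CPM in BALB/c, a log2 fold change of -1.97 ± 0.15 (SE; adjusted p = 7.18e-07). These receptors pair with TLR2 to sense bacterial lipopeptides, are neighbours on chromosome 5 (chr5:64924679-64960097), and were without overlap between strains. Tlr4, the receptor for lipopolysaccharide, was at 13.6, 12.8, 15.2, 14.1 and 16.5 CPM in B10.D2 against 19.2 to 22.4 (median 20.1) CPM in BALB/c, a log2 fold change of -0.49 ± 0.07 (SE; adjusted p = 0.000239). The peptidoglycan sensors Nod1 (-0.43) and Nod2 (-0.49) were lower as well. Of 4 tested Naip genes, which detect bacterial flagellin and secretion needles, 3 were higher, Naip1 (0.40), Naip5 (0.97) and Naip6 (1.12), and so were Nlrp1a (2.52) and Nlrp1b (1.06), families named after their values were seen. Natural killer cell receptors of chromosome 6 such as Klrk1 (1.51), Klrd1 (1.32), Klra2 (1.90) and Klrc2 (3.08) were higher and averaged under 1 CPM in BALB/c. Of 30 genes of this Klr family 9 passed the filter on low counts, and 6 were called, all higher. Whether reads are shared between copies in the Klr, Naip and Nlrp1 families was not tested. Clec18a was at 5.26, 5.31, 5.97, 5.32 and 6.58 CPM in B10.D2 against 0.79 to 1.56 (median 1.03) CPM in BALB/c, a log2 fold change of 2.40 ± 0.14 (SE; adjusted p = 5.09e-08).

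Complement is a cascade of plasma proteins that tags and lyses cells, and 7 of 28 tested members were higher and 1, Clu, lower (-0.30), with 8 higher and 1 lower without library 50. That is 28.6% called, beside 19.2% of all features. Hc, which encodes component C5, was at 3.09, 2.61, 2.53, 3.12 and 2.75 CPM in B10.D2 against 1.25 to 1.83 (median 1.43) CPM in BALB/c, a log2 fold change of 0.95 ± 0.13 (SE; adjusted p = 0.000116). C4b was at 73.5, 77.5, 74.5, 83.3 and 79.1 CPM in B10.D2 against 51.4 to 75.5 (median 62.8) CPM in BALB/c, a log2 fold change of 0.34 ± 0.06 (SE; adjusted p = 0.000764). C5ar2, a receptor for the C5a fragment, was at 1.04, 1.25, 1.43, 1.16 and 1.34 CPM in B10.D2 against 0.125 to 0.335 (median 0.267) CPM in BALB/c, a log2 fold change of 2.29 ± 0.22 (SE; adjusted p = 5.26e-06). In the chemokine list 12 were higher and 3 lower of 38 tested (13 higher and 2 lower without library 50), which is 39.5% called. Ccl27a, a skin chemokine that attracts memory T cells, was at 10.7, 10.5, 10.6, 9.84 and 10.2 CPM in B10.D2 against 0.50 to 1.13 (median 0.772) CPM in BALB/c, a log2 fold change of 3.72 ± 0.15 (SE; adjusted p = 5.69e-10). The monocyte receptor Ccr2 (0.97), Cxcr4 (0.52) and Ccl28 (1.58) were higher, and Ccl24 (-1.66), Ccl21a (-1.46) and the scavenger receptor Ackr2 (-1.58) lower. Among interleukins, the TNF family and their receptors 11 of 76 tested were higher and 0 lower (10 higher and 1 lower without library 50), which is 14.5% called beside 19.2% of all features. Il4ra, which takes up interleukin-4 and interleukin-13, was at 66.2, 61.4, 61.3, 55.1 and 51.8 CPM in B10.D2 against 18.5 to 26.4 (median 22) CPM in BALB/c, a log2 fold change of 1.42 ± 0.09 (SE; adjusted p = 5.51e-08). Il7, which keeps lymphocytes alive, was at 8.96, 9.17, 10.5, 8.52 and 10.2 CPM in B10.D2 against 3.97 to 6.24 (median 5.14) CPM in BALB/c, a log2 fold change of 0.89 ± 0.11 (SE; adjusted p = 5.46e-05). The number of complement genes called rose from 8 to 13 without BALB/c library 55. The Ccl21a call was lost without library 50. Ccl27a and Ccl21a have near-identical copies on chromosome 4, so their counts are uncertain. The strains did not overlap for Hc, C5ar2, Ccl27a, Il4ra or Il7.

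Of the pan-neuronal and sensory neuron genes 3 higher and 1 lower of 20 (1 higher and 1 lower without library 50) were called (20%, beside 19.2% of all features), 17 of the 20 had a log2 fold change above 0, and the list's median was 0.10. Isl1, a transcription factor that sensory neurons need, was at 102, 97.6, 101, 101 and 97.8 CPM in B10.D2 against 64.7 to 79.8 (median 73.6) CPM in BALB/c, a log2 fold change of 0.46 ± 0.06 (SE; adjusted p = 5.46e-05). Uchl1, better known as PGP9.5, had a log2 fold change of 0.14 ± 0.04 (SE; adjusted p = 0.0313), and without library 50 it was no longer called (adjusted p = 0.0515). The heavy neurofilament gene Nefh was lower (-0.31) and the light one, Nefl, higher (0.17), the latter call being lost without library 50. The voltage-gated sodium channels of nociceptors were not called, with log2 fold changes of 0.11 ± 0.07 for Scn9a, -0.10 ± 0.07 for Scn10a and 0.09 ± 0.07 for Scn11a (SE). The number of pan-neuronal genes called fell from 4 to 2 without B10.D2 library 67, BALB/c library 50 or BALB/c library 55 and to 1 without BALB/c library 51.

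In the list of peptidergic nociceptor genes, measured in whole ganglia, 3 higher and 1 lower of 16 were called (25%, beside 19.2% of all features). The neuropeptide genes Calca (-0.02 ± 0.07 SE, adjusted p = 0.877) and Tac1 (0.20 ± 0.14 SE, adjusted p = 0.375) and the heat and capsaicin channel Trpv1 (0.38 ± 0.15 SE, adjusted p = 0.108) were not called. Trpa1, the irritant channel, was at 77, 80.9, 100.2, 78.6 and 84.9 CPM in B10.D2 against 55.9 to 77.1 (median 63.1) CPM in BALB/c, a log2 fold change of 0.35 ± 0.09 (SE; adjusted p = 0.0135), with 1 B10.D2 library inside the BALB/c range. Oprm1, the mu opioid receptor through which morphine acts, was at 45, 57.1, 55.9, 56.4 and 53.8 CPM in B10.D2 against 29.6 to 38.3 (median 33) CPM in BALB/c, a log2 fold change of 0.69 ± 0.08 (SE; adjusted p = 2.32e-05). 1 of 7 tested opioid genes was called, namely Oprm1 (14.3% of the list, beside 19.2% of all features). Kcnk18, the background potassium channel TRESK that damps excitability, was at 9.86, 11, 10.4, 12.9 and 11.3 CPM in B10.D2 against 16.3 to 21.6 (median 19.5) CPM in BALB/c, a log2 fold change of -0.78 ± 0.07 (SE; adjusted p = 5.12e-06). The somatostatin receptor Sstr2 was at 3.27, 3.35, 5.73, 5.22 and 4.01 CPM in B10.D2 against 1.37 to 2.47 (median 2.02) CPM in BALB/c, a log2 fold change of 1.14 ± 0.19 (SE; adjusted p = 0.000845). The number of peptidergic genes called rose from 4 to 7 without B10.D2 library 58 and to 8 without BALB/c library 71. For Oprm1, Kcnk18 and Sstr2 no B10.D2 library lay inside the BALB/c range.

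Markers of nonpeptidergic and itch neurons were called in 9 of 26 cases, with 8 higher and 1 lower (6 higher and 2 lower without library 50). That is 34.6% of the list, beside 19.2% of all features. The lower gene was Mrgprd, the receptor that defines the main nonpeptidergic class, at 156, 164, 175, 153 and 144 CPM in B10.D2 against 230.9 to 276 (median 252) CPM in BALB/c, a log2 fold change of -0.69 ± 0.06 (SE; adjusted p = 2.34e-06). Among the higher genes was Mrgprb4, which marks neurons that respond to stroking, at 16.7, 16.6, 24.6, 18.5 and 19.6 CPM in B10.D2 against 9.31 to 12 (median 9.84) CPM in BALB/c, a log2 fold change of 0.88 ± 0.11 (SE; adjusted p = 6.38e-05). Gfra2, the neurturin receptor, was at 92.8, 106, 86.6, 95.9 and 78.7 CPM in B10.D2 against 50.6 to 77.3 (median 64.4) CPM in BALB/c, a log2 fold change of 0.54 ± 0.10 (SE; adjusted p = 0.00125). P2rx3, the ATP channel that the same neurons carry, was not called (0.01 ± 0.06 SE, adjusted p = 0.93). Of the other Mrgpr genes Mrgprb5 (0.37) and Mrgpra2a (0.38) were higher, and Mrgpra3, a marker of chloroquine itch neurons, was not called (-0.28). Without library 50 Mrgpra3 was called and Mrgpra2a was not.

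Among touch and proprioceptor genes 4 higher and 2 lower of 19 were called (31.6%, beside 19.2% of all features). Slc17a8, the vesicular glutamate transporter VGLUT3 of low-threshold C fibres, was at 10.5, 10.2, 12.6, 12.5 and 12.9 CPM in B10.D2 against 2.73 to 3.23 (median 2.93) CPM in BALB/c, a log2 fold change of 2.01 ± 0.08 (SE; adjusted p = 6.58e-10). Th, tyrosine hydroxylase, which marks the same fibres, was at 58.9, 59.5, 84.6, 73.6 and 67.7 CPM in B10.D2 against 27.9 to 49.4 (median 32.9) CPM in BALB/c, a log2 fold change of 0.99 ± 0.14 (SE; adjusted p = 0.000147). The calcium buffer Calb1 was at 48.2, 46.1, 43.4, 54.3 and 51.7 CPM in B10.D2 against 18.9 to 25.3 (median 21.7) CPM in BALB/c, a log2 fold change of 1.14 ± 0.08 (SE; adjusted p = 2.31e-07). The strains did not overlap in these 3 genes, and all 3 were higher in B10.D2. Piezo2, the touch channel itself, was at 816, 862, 786, 858 and 734 CPM in B10.D2 against 703 to 814 (median 743) CPM in BALB/c, a log2 fold change of 0.11 ± 0.06 (SE; adjusted p = 0.245). Ldhb (-0.30) and Spp1 (-0.41), both enriched in large neurons, were lower.

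**Figure D3:**
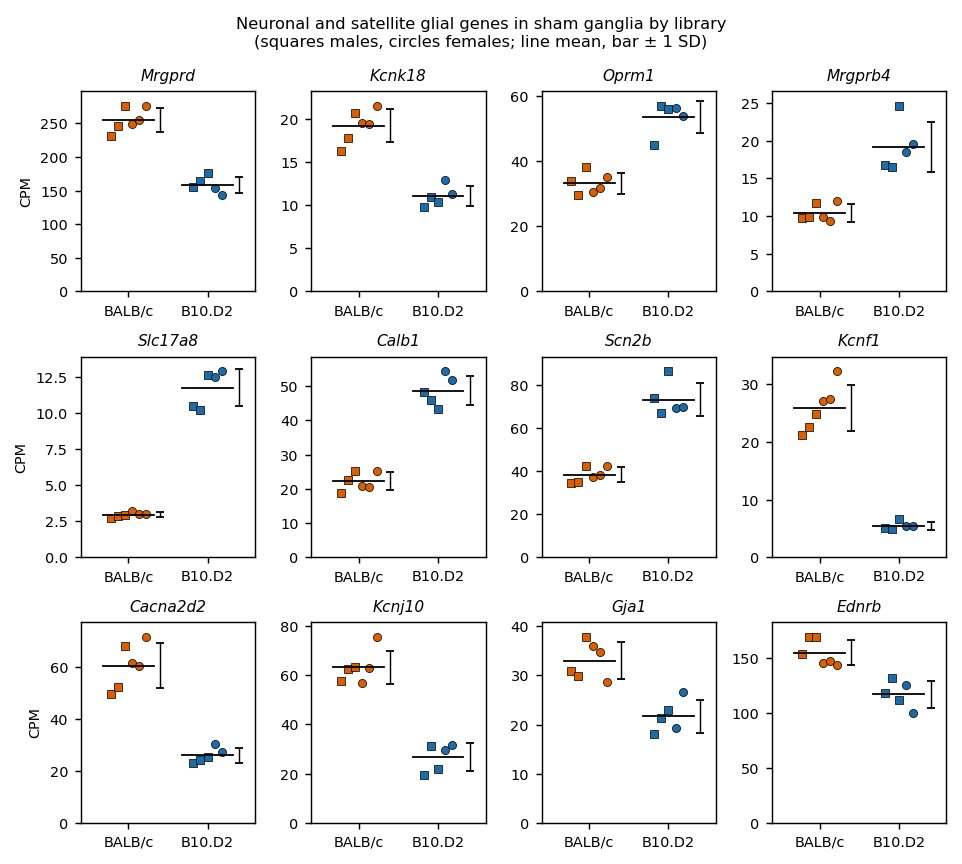
CPM of 9 neuronal and 3 satellite glial genes in each sham library (y axis from 0; squares males, circles females; line mean, bar 1 SD). Mrgprd, Kcnk18, Kcnf1, Cacna2d2, Kcnj10, Gja1 and Ednrb were lower in all 5 B10.D2 libraries than in any of the 6 BALB/c libraries, and Oprm1, Mrgprb4, Slc17a8, Calb1 and Scn2b higher.

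Of sodium channels 2 higher and 2 lower of 14 were called (28.6%, beside 19.2% of all features). Scn2b, an auxiliary subunit, was at 73.8, 67, 86.3, 69.1 and 69.8 CPM in B10.D2 against 34.3 to 42.5 (median 37.8) CPM in BALB/c, a log2 fold change of 0.94 ± 0.08 (SE; adjusted p = 1.24e-06), and its relative Scn4b at 391, 374, 314, 314 and 290.0 CPM in B10.D2 against 396 to 437 (median 416) CPM in BALB/c, a log2 fold change of -0.31 ± 0.07 (SE; adjusted p = 0.00665). Scn4a, the skeletal muscle channel, was lower (-0.39), with its highest value in library 50, and was not called without B10.D2 library 58. Potassium channels set the resting potential and shorten firing, and 12 higher and 10 lower of 83 were called (26.5%). The silent subunit Kcnf1 was at 4.97, 4.84, 6.66, 5.49 and 5.37 CPM in B10.D2 against 21.2 to 32.3 (median 25.9) CPM in BALB/c, a log2 fold change of -2.21 ± 0.11 (SE; adjusted p = 5.05e-09). Kcnj16, an inward rectifier, was at 7.72, 5.64, 7.64, 8.04 and 6.69 CPM in B10.D2 against 1.13 to 1.92 (median 1.55) CPM in BALB/c, a log2 fold change of 2.20 ± 0.14 (SE; adjusted p = 8.73e-08). The background channel Kcnk9 was at 2.43, 2.97, 2.24, 2.8 and 2.46 CPM in B10.D2 against 0.535 to 0.862 (median 0.77) CPM in BALB/c, a log2 fold change of 1.78 ± 0.14 (SE; adjusted p = 6.92e-07). Kcnd3, a carrier of A-type current, was at 200.3, 196, 192, 189 and 159 CPM in B10.D2 against 116 to 141 (median 125) CPM in BALB/c, a log2 fold change of 0.56 ± 0.07 (SE; adjusted p = 3.18e-05). Kcna2 (-0.23), Kcnip2 (-0.45) and Kcnn1 (-0.42) were lower, and Kcnip4 (0.37) and Kcnb2 (0.19) higher.

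Calcium and HCN channels gave 2 higher and 3 lower of 27 tested (18.5% called, beside 19.2% of all features). Cacna2d2, a relative of the gabapentin target, was at 23, 24, 25.4, 30.4 and 27.1 CPM in B10.D2 against 49.4 to 71.5 (median 60.9) CPM in BALB/c, a log2 fold change of -1.20 ± 0.08 (SE; adjusted p = 2.19e-07). Cacng5 was at 18.4, 17.8, 14.8, 16.9 and 14.6 CPM in B10.D2 against 19.7 to 23.4 (median 22) CPM in BALB/c, a log2 fold change of -0.40 ± 0.08 (SE; adjusted p = 0.00201). Cacna1s, the skeletal muscle calcium channel, was lower (-2.81), at 16.6 CPM in library 50 against a median of 1.04 CPM in BALB/c. The number of these channels called went from 5 to 2 without B10.D2 library 58, to 3 without BALB/c library 51 and to 9 without BALB/c library 57. Of TRP, ASIC, Piezo and P2X channels 5 higher and 3 lower of 30 were called (26.7%, beside 19.2% of all features). Piezo1, the mechanically gated channel of vessels and other nonneuronal cells, was at 11.6, 12.4, 10.2, 13.4 and 10.4 CPM in B10.D2 against 17.5 to 22.2 (median 18.7) CPM in BALB/c, a log2 fold change of -0.72 ± 0.08 (SE; adjusted p = 2.43e-05). The warmth channel Trpv3 (0.72) and P2rx6 (0.43) were higher, and Trpc5 (-0.64) and Trpm3 (-0.24) lower. Chloride channels and cotransporters gave 2 higher and 3 lower of 25 (0 higher and 3 lower without library 50), which is 20% called beside 19.2% of all features. Slc12a2, the NKCC1 cotransporter that loads sensory neurons with chloride, was at 304, 286, 327, 288 and 300.1 CPM in B10.D2 against 339 to 401 (median 371) CPM in BALB/c, a log2 fold change of -0.30 ± 0.05 (SE; adjusted p = 0.000401), and Slc12a4 was lower too (-0.25). The number called in this list fell from 5 to 3 without B10.D2 library 58, BALB/c library 50 or BALB/c library 51 and to 2 without B10.D2 library 67 or B10.D2 library 77. For Slc12a2 and Slc12a4 the strains did not overlap.

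Receptors for glutamate, GABA and glycine were called in 14 of 42 cases, 10 higher and 4 lower (9 higher and 3 lower without library 50). That is 33.3% of the list, beside 19.2% of all features. Glra4, a glycine receptor subunit, was at 2.37, 1.81, 3.27, 2.1 and 2.96 CPM in B10.D2 against 0.0239 to 0.113 (median 0.0288) CPM in BALB/c, a log2 fold change of 5.68 ± 0.31 (SE; adjusted p = 1.99e-08). Gabrg3, a GABA-A receptor subunit, was at 1.62, 2.2, 3.17, 3.85 and 5.19 CPM in B10.D2 against 0.359 to 1.19 (median 0.492) CPM in BALB/c, a log2 fold change of 2.25 ± 0.35 (SE; adjusted p = 0.000409). The glycine receptor subunits Glra2 (2.59) and Glra3 (2.37) were also higher but under 1 CPM in both strains. Gabrb1 (1.16) and the kainate receptor Grik1 (0.35) were higher, and Grm5 (-0.89), Grin2a (-0.78) and Grik3 (-0.66) lower. In the list of neurotrophins, GDNF family and receptors 5 higher and 1 lower of 16 (3 higher and 1 lower without library 50) were called, which is 37.5%. Bdnf, which sensory neurons release in the spinal cord, was at 42.7, 50.9, 34, 27.7 and 27.8 CPM in B10.D2 against 18.7 to 30.2 (median 23.5) CPM in BALB/c, a log2 fold change of 0.58 ± 0.16 (SE; adjusted p = 0.0241), with overlap. The GDNF receptor Gfra1 was at 182, 181, 171, 175 and 156 CPM in B10.D2 against 128 to 144 (median 140.2) CPM in BALB/c, a log2 fold change of 0.32 ± 0.05 (SE; adjusted p = 0.000281). Sort1, sortilin, was lower (-0.38) and Ngfr higher (0.24), the latter call being lost without library 50, as was that of Bdnf. In this list the number called fell from 6 to 3 without B10.D2 library 60. Of 13 neuropeptides 1 was called (7.69%, beside 19.2% of all features), Sst (0.49), and it was not called without library 50.

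Of 18 tested markers of nerve injury, genes that sensory neurons switch on after axon damage, 1, Flrt3 (0.22), was higher and 1, Stmn4 (-0.45), lower (11.1% called, beside 19.2% of all features). Atf3 was at 23.5, 13.2, 9.83, 11.5 and 8.42 CPM in the B10.D2 libraries and at 7.79 to 24.6 (median 12.1) CPM in BALB/c, a log2 fold change of -0.08 ± 0.27 (SE; adjusted p = 0.884). Gal was at 4.51, 7.09, 8.09, 6.43 and 8.05 CPM in the B10.D2 libraries and at 4.38 to 12.5 (median 7.44) CPM in BALB/c, a log2 fold change of -0.23 ± 0.25 (SE; adjusted p = 0.613). Both genes overlapped between strains, and neither was called. The Flrt3 call was lost without library 50, and 1 marker was called when any of 7 libraries was left out.

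Of 53 tested glial genes 10 were called (18.9%, beside 19.2% of all features), 9 lower and 1 higher in B10.D2. These numbers were 9 lower and 5 higher without BALB/c library 71, and 11 lower and 3 higher in the study's model on all mouse libraries. Of 20 satellite glial cell genes 0 were higher and 5 lower (25% called, beside 19.2% of all features). Kcnj10, the Kir4.1 channel with which satellite glia take up potassium, was at 19.4, 31.3, 22, 29.8 and 31.7 CPM in B10.D2 against 56.9 to 75.5 (median 62.7) CPM in BALB/c, a log2 fold change of -1.22 ± 0.11 (SE; adjusted p = 3.75e-06). Gja1, connexin 43 of glial gap junctions, was at 18, 21.3, 23, 19.3 and 26.7 CPM in B10.D2 against 28.6 to 37.8 (median 32.9) CPM in BALB/c, a log2 fold change of -0.60 ± 0.10 (SE; adjusted p = 0.00082). Ednrb, the endothelin B receptor, was at 118, 132, 112, 125 and 99.9 CPM in B10.D2 against 144 to 169.5 (median 151) CPM in BALB/c, a log2 fold change of -0.41 ± 0.06 (SE; adjusted p = 0.000272). Lgi4 (-0.45) and Fbln5 (-0.36) were the other lower members. The strains did not overlap in Kcnj10, Gja1, Ednrb and Lgi4. Other satellite glial genes were not called. Fabp7 was at 129, 217, 222, 257 and 140.2 CPM in B10.D2 against 65.6 to 223 (median 154) CPM in BALB/c, a log2 fold change of 0.44 ± 0.30 (SE; adjusted p = 0.373), Glul had a log2 fold change of -0.07 ± 0.07 (SE; adjusted p = 0.61) and Apoe of -0.02 ± 0.07 (SE; adjusted p = 0.875). The number of satellite glial genes called rose from 5 to 8 without BALB/c library 71. The summed level of the list was 5297 to 5741 CPM in B10.D2 and 5396 to 5939.9 CPM in BALB/c.

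Of 22 Schwann cell and myelin genes 0 were higher and 4 lower (0 higher and 5 lower without library 50), which is 18.2% called beside 19.2% of all features. Their summed level spread from 3196 to 6828 CPM in BALB/c and from 3916 to 4372 CPM in B10.D2. Mbp, myelin basic protein, was at 684, 645, 648, 628 and 647 CPM in B10.D2 against 499.9 to 1274 (median 718) CPM in BALB/c, a log2 fold change of -0.30 ± 0.18 (SE; adjusted p = 0.295), so it was not called, and its highest value was in BALB/c library 51. Dusp15, a phosphatase of myelinating cells, was at 58.6, 55.7, 52.9, 53.4 and 49.8 CPM in B10.D2 against 67.2 to 104 (median 76.3) CPM in BALB/c, a log2 fold change of -0.60 ± 0.11 (SE; adjusted p = 0.0016). Gldn, gliomedin of the node of Ranvier, was at 24.2, 22.2, 23.6, 23.4 and 23.4 CPM in B10.D2 against 24.3 to 46.9 (median 30.2) CPM in BALB/c, a log2 fold change of -0.49 ± 0.13 (SE; adjusted p = 0.0141). Pmp2 (-1.54) and Ugt8a (-0.61), which makes a myelin lipid, were also lower. Of 14 genes of nonmyelinating and repair Schwann cells 1 was higher, Ngfr (7.14% called), and without library 50 0 were higher and 1 lower.

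Markers of tissue around the ganglion moved with strain too. Mural cell genes gave 0 higher and 7 lower of 10 (0 higher and 8 lower without library 50), among them the smooth muscle genes Acta2 (-1.45), Myh11 (-1.07) and Cnn1 (-1.83), and their sum was 331 to 395 CPM in B10.D2 and 384 to 508 CPM in BALB/c. Adipocyte genes gave 0 higher and 6 lower of 10 (0 higher and 5 lower without library 50), with sums of 22.1 to 91 and 53.4 to 119.7 CPM, and endothelial genes 2 higher and 5 lower of 12 (2 higher and 3 lower without library 50), with sums of 249 to 291 and 271 to 335 CPM. The endothelial number went from 7 to 4 without B10.D2 library 58, B10.D2 library 60, BALB/c library 51 or BALB/c library 57. Skeletal muscle genes gave 0 higher and 8 lower of 12 (0 higher and 7 lower without library 50), with sums of 64.5 to 105 and 74.4 to 1829.8 CPM. Leaving out 1 library moved the number called from 8 to 1 without B10.D2 library 58, to 0 without B10.D2 library 60 or B10.D2 library 88 and to 3 without BALB/c library 56. Fibroblast genes gave 3 higher and 1 lower of 12 and erythroid genes 0 higher and 0 lower of 7. Of central glia and spinal cord genes 6 of 11 did not pass the filter on low counts, and Aqp4 was called (0.87). The part of surrounding tissue in the lower Piezo1, Scn4a and Cacna1s values and in the other differences was not tested.

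**Figure D4:**
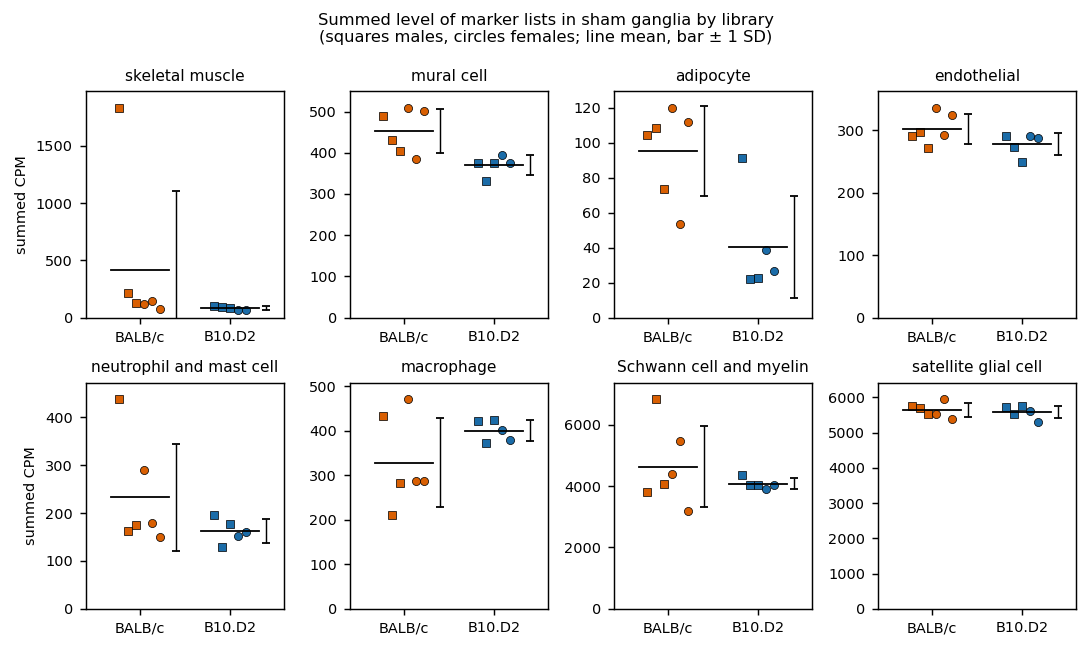
Summed CPM of 8 marker lists in each sham library (y axis from 0; squares males, circles females; line mean, bar 1 SD, which in muscle runs below 0 and is clipped). BALB/c library 50 is high for skeletal muscle (1829.8 CPM) and for neutrophil and mast cell genes (438 CPM), and library 51 for myelin genes, while the satellite glial cell sums of the strains overlap.

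The largest differences were near-absence in 1 strain. Among protein-coding genes that did not overlap and reached 1 CPM, Cldn34c1, Olfr1033, Trim12a and Gvin1 were highest in B10.D2 and Serpina1b, Ifi202b, Fcgbp and Eno1b in BALB/c by log2 fold change. Olfr1033, an odorant receptor gene on chromosome 2, had 1136 reads in B10.D2 and 8 in BALB/c, with at most 3 in any BALB/c library. Gvin1, an interferon-inducible GTPase gene, had 196 reads in B10.D2 and 2 in BALB/c, a ratio of 117 (exact 95% interval 31.9 to 970.1, counting error only). Trim12a was at 8.85, 8.93, 10, 10.6 and 10.2 CPM in B10.D2 against 0.0278 to 0.119 (median 0.0689) CPM in BALB/c, a log2 fold change of 7.01 ± 0.18 (SE; adjusted p = 9.53e-12). Fcgbp, which encodes a mucus-type protein that binds antibody, was at 0.173, 0.0594, 0.143, 0.0807 and 0.105 CPM in B10.D2 against 23.6 to 38.5 (median 30.7) CPM in BALB/c, a log2 fold change of -8.0 ± 0.16 (SE; adjusted p = 7.74e-13). Eno1b, a near-identical copy of the glycolytic gene Eno1, was at 0.492, 0.237, 0.167, 0.35 and 0.184 CPM in B10.D2 against 19.3 to 24.5 (median 22.8) CPM in BALB/c, a log2 fold change of -6.30 ± 0.19 (SE; adjusted p = 3.44e-11). Serpina1b had 0 reads in B10.D2 and was at least 22.8-fold lower there, against a floor of 3 reads in a library. Reads of Eno1b, Trim12a and Serpina1b can be shared with their copies, so their levels are uncertain. Whether reads of Cldn34c1, Olfr1033, Gvin1, Ifi202b or Fcgbp are shared with related genes was not tested.

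Noncoding features held differences of the same size. The assembled LncRNA1460, on chromosome 7 (chr7:3743410-3906418), had 276 reads in BALB/c and 0 in B10.D2, at least 14.2-fold lower, while LncRNA302, on chromosome 2 (chr2:118554891-118582213), had 369 reads in B10.D2 and 1 in BALB/c, a ratio of 439 (exact 95% interval 78.4 to 17396, counting error only). LncRNA3290 and LncRNA3324 were the other members of this kind, higher and lower in B10.D2. Of annotated noncoding genes Gm13394, a pseudogene, was at 0.376, 0.267, 0.0716, 0.403 and 0.131 CPM in B10.D2 against 58.5 to 72.8 (median 70.2) CPM in BALB/c, a log2 fold change of -8.13 ± 0.18 (SE; adjusted p = 1.61e-12). Whether reads of Gm13394 are shared with another copy was not tested. Rprl3, related to the RNA of ribonuclease P, had 8 reads in B10.D2 and 2666 in BALB/c. Gm43305 had 944 reads in B10.D2 and 6 in BALB/c, with at most 3 in any BALB/c library. With so few reads in the lower strain, no fold change is given for Olfr1033, Rprl3 and Gm43305. Assembled LncRNAs that run antisense to a tested gene formed 642 pairs, and in 41 both partners were called, 21 in the same and 20 in opposite directions. Among all features tested, 23.8% of assembled LncRNAs and 19.4% of protein-coding genes were called. Whether joint calls exceed what these shares give was not tested. Listed genes among the 41 were Fcgr1, Trpv3, Kcnmb1, Trim5 and Trim34b. LncRNA2276 and Trpv3, and LncRNA1435 and Trim5, were both higher in B10.D2, and LncRNA2252 and Kcnmb1 both lower. LncRNA557, antisense to Fcgr1, averaged 3.66 CPM in BALB/c and 0.04 CPM in B10.D2, where Fcgr1 was higher. LncRNA5456, antisense to Trim34b, averaged 0.74 CPM in BALB/c and 9.45 CPM in B10.D2, where Trim34b was lower. Its interval (chr7:104281272-104352084, minus strand) also holds Trim12a on the same strand, at means of 0.07 CPM in BALB/c and 9.71 CPM in B10.D2. The Trim genes there are near-identical copies, so the levels of LncRNA5456 and Trim34b are uncertain.

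Called features lay on every autosome and on X and Y in unequal density. The share called was between 14.9% (chromosome 10) and 23.4% (chromosome 18) on autosomes and 12.7% on X. On Y 3 of 13 features were called, 0 higher and 3 lower in B10.D2, and of the mitochondrial genes 0 of 15. In 418 windows of 5 Mb with at least 20 tested features the share ranged from 0 to 57.6%, with quartiles of 12% and 25.8%. In 6 windows no feature was called, and the highest share, 19 of 33 features, was at chr6:135000001-140000000 (GRCm38), with 6 higher and 13 lower in B10.D2.

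SNI ganglia, from other animals of both strains, give a separate measure of the strain difference, at a time when the nerve had been cut. There 5038 of 24297 features were called between strains (20.7%). Of the 4544 features called in sham and tested in both, 4489 had the same direction in SNI (98.8%) and 3293 were also called (72.5%), against 2 called in the opposite direction. Among features not called in sham the same direction was seen in 70.8%. By class, 96 of 125 called immune, 65 of 84 called neuronal and 9 of 10 called glial members were called again in the same direction. Log2 fold changes in SNI were 0.58 ± 0.14 (SE; adjusted p = 0.0132) for H2-K1, 1.03 ± 0.17 (SE; adjusted p = 0.00105) for Igtp and -2.21 ± 0.12 (SE; adjusted p = 1.42e-07) for Tlr1. Mrgprd was at -0.57 ± 0.07 (SE; adjusted p = 6.59e-05), Oprm1 at 0.71 ± 0.05 (SE; adjusted p = 2.16e-06), Slc17a8 at 2.09 ± 0.10 (SE; adjusted p = 3.13e-08) and Kcnj10 at -1.34 ± 0.11 (SE; adjusted p = 2.89e-06). The immunoglobulin gene Ighm (0.44 ± 0.24 SE, adjusted p = 0.229) and the complement gene C4b (0.24 ± 0.13 SE, adjusted p = 0.244) were not called there. Gal, not called in sham, had a log2 fold change of -2.60 ± 0.20 (SE; adjusted p = 2.36e-06) in SNI, and none of the 8 muscle or 6 adipocyte members called in sham was called in SNI. Whether a strain difference changed with surgery was not tested.

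**Figure D5:**
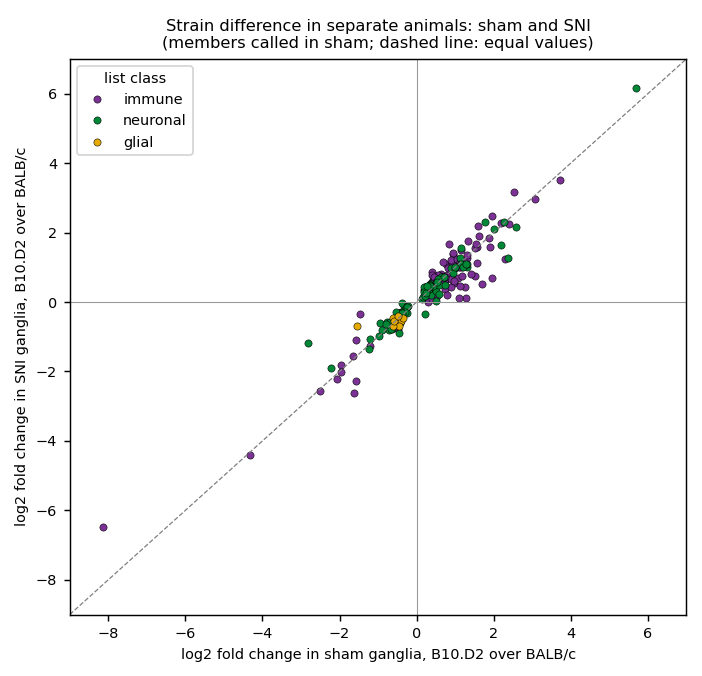
Log2 fold change (B10.D2 over BALB/c) in sham ganglia (x axis) and in SNI ganglia of other animals (y axis) for the immune, neuronal and glial members called in sham; the dashed line marks equal values. Nearly all points lie in the lower left or upper right part, as 124 of 125 immune, 83 of 84 neuronal and 10 of 10 glial members kept their direction.

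Sexes were also taken apart. In males 2846 of 23189 features were called between strains (12.3%) and in females, with 2 B10.D2 libraries, 1878 of 23939 (7.84%). Without B10.D2 library 58 or BALB/c library 51 the count in males was 1805 or 1842, and without B10.D2 library 67 or 77 that in females was 835 or 682. Immune members called in males were 75 higher and 10 lower, and in females 38 higher and 11 lower. Neuronal members called were 41 higher and 21 lower in males and 22 higher and 17 lower in females, and glial members 1 higher and 8 lower in males and 0 higher and 4 lower in females. These libraries are also part of the comparison of both sexes. A strain-by-sex term called 0 of 24824 features in edgeR (0%; 1973 had an unadjusted p under 0.05, and the lowest adjusted p was 0.591), and DESeq2 called 15. Of 740 listed neuronal, glial and immune members with a value, edgeR and DESeq2 called 0, and 55 had an unadjusted p under 0.05 in edgeR.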

How the data were processed

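Total RNA of lumbar DRG was sequenced by the authors as ribodepleted, strand-specific paired-end libraries, aligned with STAR to mm10 (GRCm38, built from C57BL/6J) and counted with HTSeq over Ensembl genes and the LncRNAs that they had assembled. The deposited values are raw counts per feature and were used as deposited. Whether sequence differences of the strains from the reference altered counting was not tested. Tool versions were not given in the sources used here. Libraries were grouped by their labels, and strains were spread over sequencing lanes by the authors. No pair of libraries within a strain held identical counts.

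Features were kept by edgeR's filterByExpr, scaled by TMM (factors 0.984 to 1.028) and tested with its quasi-likelihood test (edgeR 4.0.16, R 4.3.3), sex plus strain, with Benjamini-Hochberg adjustment over all features tested. The SE printed with a log2 fold change is its absolute value divided by the square root of the test's F statistic. The same fit was made in SNI ganglia, within each sex and with a strain-by-sex term. Names and positions came from GENCODE M21 (49326 of 49585 Ensembl IDs) and the authors' LncRNA annotation. Shares of library composition were compared with two-sided exact permutation tests, adjusted over 6 measures. With 3 counts as the floor of a library, a level under 0.0716 to 0.0902 CPM in a single library could not be told from 0, and intervals cover counting error only. Each library is 1 animal, so p-values measure the spread between animals. Alternatives were DESeq2 1.42.0, RLE scaling, other filters, the authors' model on all mouse libraries, no sex term, annotated genes alone and leaving out each library.

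Genes named were those without overlap between strains and at least 1 CPM in the higher strain: the 4 protein-coding genes, 2 assembled LncRNAs and 2 annotated noncoding genes with the largest change each way, up to 2 members of each list each way, and any calls of the strain-by-sex term. To these came a set of well-known genes, whether called or not. Further list and family members were named after their values were seen. Results for some genes are not reported here. Members and lists were chosen with earlier results of these data known.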

Additional observations from a re-analysis of the deposited data

Results flagged for a closer look

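In 268 groups of 5 or 6 sham libraries of 1 strain (named genes, summed lists and composition shares), 26 held a library whose gap to its nearest neighbour took an unusually large share of the whole range (Dixon's criterion). Chance flags about 1 in 20 groups, and groups that share genes or libraries are not independent. For LncRNA3290, LncRNA302 and Ifi202b the gap is 1 read in 1 library with the others at 0, so ties at 0 fix it, and for these and Gm40518 no library of the strain held more than 3 reads, the floor used here. Values are those of the library named, beside the range of the others of its strain, and no cause was tested.

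For BALB/c library 71 there were 3. LncRNA3290 was at 0.0284 CPM against 0 in the others and LncRNA1460 was at 2.5 CPM against 0.713 to 1.36 CPM. The sum of opioid system was at 99.9 CPM against 88.3 to 91.2 CPM. BALB/c library 50 stood out in 4 measures. LncRNA302 was at 0.0297 CPM against 0 in the others and Scn4a was at 12.8 CPM against 8.14 to 9.61 CPM. Kcnk9 was at 0.535 CPM against 0.762 to 0.862 CPM and the sum of skeletal muscle genes was at 1830.0 CPM against 74.4 to 211 CPM. BALB/c library 55 did so in 6. Gm40518 was at 0 CPM against 0.0586 to 0.0851 CPM and Gm13394 was at 58.5 CPM against 69.3 to 72.8 CPM. Trpc5 was at 4.36 CPM against 2.84 to 3.23 CPM and Grin2a was at 1.82 CPM against 1.14 to 1.3 CPM. The sum of interleukins, TNF family and receptors was at 623 CPM against 549.6 to 577 CPM and the sum of central glia and spinal cord genes was at 43.4 CPM against 19.6 to 25.2 CPM. In BALB/c library 57 there was 1. Kcnj10 was at 75.5 CPM against 56.9 to 63.5 CPM. In B10.D2 library 67 there were 4. Ifi202b was at 0.0269 CPM against 0 in the others and Gm43305 was at 4.57 CPM against 5.17 to 5.32 CPM. H2-Q7 was at 2.02 CPM against 1.36 to 1.55 CPM and the sum of MHC class I antigen presentation was at 1321 CPM against 1126 to 1166 CPM. B10.D2 library 58 stood out in 4 measures. Rprl3 was at 0.116 CPM against 0.0239 to 0.0297 CPM and Oprm1 was at 45 CPM against 53.8 to 57 CPM. The sum of Schwann cell and myelin genes was at 4371 CPM against 3916 to 4048 CPM and the sum of adipocyte genes was at 91 CPM against 22.1 to 38.6 CPM. Of B10.D2 library 88 there were 3. Calca was at 1153 CPM against 904 to 968 CPM and the sum of peptidergic nociceptor genes was at 2318 CPM against 1850.0 to 1930.0 CPM. The sum of neuropeptides was at 1731 CPM against 1331 to 1385 CPM. B10.D2 library 77 had 1. The mitochondrial share of counts was 1.43% against 0.537% to 0.706%.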

How the results depend on the processing

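The number of features called between strains in sham ganglia stayed within 1.5 times of 4630 under DESeq2, RLE scaling, both other filters, the study's model, no sex term and annotated genes alone (3688 to 5322), as did the counts of neuronal (76 to 94), glial (9 to 14) and immune genes (100 to 150). Leaving out 1 sham library gave 3859 to 4463 features, 70 to 92 neuronal, 8 to 14 glial and 100 to 143 immune genes. In SNI ganglia leaving out 1 library gave 3946 to 5102 features. In males it gave 1805 to 2639, with 1805 without B10.D2 library 58 and 1842 without BALB/c library 51. In females it gave 682 to 2193, with 835 without B10.D2 library 67 and 682 without library 77, where a lone B10.D2 library is assumed to vary like the others. The strain-by-sex count of 0 became 15 with DESeq2, stayed 0 with RLE scaling or no filter, and was 0 to 2 when 1 library was left out: 1 without B10.D2 library 88, 1 without BALB/c library 55 and 2 without BALB/c library 71.

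Differences in composition were called under no alternative, and their sign turned with single libraries. The difference in total (B10.D2 minus BALB/c, 0.336 M counts) was -0.856 to 1.1 M counts, negative without BALB/c library 50 (-0.370), BALB/c library 57 (-0.170) or B10.D2 library 88 (-0.856), and that in haemoglobin share (0.00951 percentage points) was -0.00406 to 0.0216, negative without B10.D2 library 58. Of the 80 named genes that were called, none changed sign under any alternative run, 4 lost their call when some library was left out (Uchl1, Scn4a, Cacna1d and H2-Ea-ps), and Uchl1 and Cacna1d lost it without a filter. Among the 14 that were not called, Trpv1 was called without a filter, and 4 changed sign when some library was left out. Over the libraries left out, their log2 fold changes were -0.073 to 0.016 for Calca, -0.028 to 0.055 for P2rx3, -0.040 to 0.190 for Cd68 and -0.294 to 0.136 for Atf3. Over 34 lists, 528 of 612 counts of called members under the alternatives were within 1.5 times of the main count. No paired analysis was possible because the library numbers are unique to 1 animal. The causes were not tested.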
